A study of Mus musculus with 2 samples.

Results

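Oligodendrocyte precursor cells (OPCs) of the adult mouse striatum were taken from single-cell RNA-seq counts of 2 libraries by their own transcripts. A barcode, the tag that all RNA of a droplet carries, was called an OPC when at least 300 genes were detected, when at least 3 of the 6 genes *Pdgfra*, *C1ql1*, *Lhfpl3*, *Cacng4*, *Cspg4* and *Matn4* had a unique molecular identifier (UMI, a count of 1 captured mRNA molecule), when neither of the mitotic genes *Mki67* and *Top2a* had one, and when fewer than 3 of the 5 differentiation genes *Gpr17*, *Bmp4*, *Enpp6*, *Tcf7l2* and *Itpr2* did. The rule found 202 OPCs among 6898 barcodes of library 1 and 269 among 5364 barcodes of library 2, 471 of 12262 in all. Both libraries were labelled as replicates of untreated striatum, enriched for glia, from mice aged 8 to 10 weeks, whose strain is C57/Bl6J in the sample labels and C57BL/6NTac in the protocol. For the mice of its striatal single-cell work the paper gives a slightly lower age. The protocol digested the tissue with pronase, passed it through a fine filter and removed myelin debris, steps that favour non-neuronal cells over neurons and that can set the share of any class. No treatment, genotype or age was compared. The comparisons were therefore between cell classes of the same suspensions, and since no label ties the libraries to separate animals, the p-values below measure the spread between these 2 libraries and their class sums.

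OPCs are the dividing glia of the adult brain that give rise to myelinating oligodendrocytes. They sense platelet-derived growth factor through the receptor encoded by *Pdgfra*, carry the proteoglycan NG2 encoded by *Cspg4*, and receive synaptic input from neurons through glutamate and GABA receptors. On leaving the precursor state they pass through a stage marked by *Gpr17*, *Bmp4*, *Enpp6* and *Itpr2*, then make myelin proteins and large amounts of cholesterol for the myelin sheath. In all lineage cells the transcription factors OLIG1, OLIG2 and SOX10 hold this identity. OLIG1 and OLIG2 belong to the basic helix-loop-helix family, which binds the E-box motif CANNTG, in which N stands for any base.

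The 6 marker genes lie on 4 chromosomes of the mouse genome GRCm38, on which the counts were made (mm10). *Pdgfra* spans chr5:75152292-75198215 on the plus strand, *Lhfpl3* chr5:22746059-23275597 (plus), *C1ql1* chr11:102939264-102946688 (minus), *Cacng4* chr11:107732357-107794557 (minus), *Cspg4* chr9:56865033-56899870 (plus) and *Matn4* chr2:164389393-164405160 (minus). Because the markers define the cells, the promoters of 3 of them are shown, chosen to span the range of E-box counts, with 250 bases before and 50 bases after the transcription start that RefSeq gives on GRCm38.p6. Capitals mark each CANNTG, a motif that reads the same on both strands.
Pdgfra, chr5:75152001-75152300, plus strand: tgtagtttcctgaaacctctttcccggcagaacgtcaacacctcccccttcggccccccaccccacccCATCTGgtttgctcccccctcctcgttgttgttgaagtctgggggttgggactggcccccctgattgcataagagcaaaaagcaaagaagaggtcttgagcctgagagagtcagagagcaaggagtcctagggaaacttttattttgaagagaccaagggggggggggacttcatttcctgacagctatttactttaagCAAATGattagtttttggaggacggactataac
Matn4, chr2:164405111-164405410, minus strand: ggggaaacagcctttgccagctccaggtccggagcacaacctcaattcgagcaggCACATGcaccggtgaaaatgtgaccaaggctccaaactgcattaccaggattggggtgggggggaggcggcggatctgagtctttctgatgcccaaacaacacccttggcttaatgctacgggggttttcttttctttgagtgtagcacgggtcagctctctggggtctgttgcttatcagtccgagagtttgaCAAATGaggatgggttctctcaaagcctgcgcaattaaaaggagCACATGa
Cspg4, chr9:56864854-56865153, plus strand: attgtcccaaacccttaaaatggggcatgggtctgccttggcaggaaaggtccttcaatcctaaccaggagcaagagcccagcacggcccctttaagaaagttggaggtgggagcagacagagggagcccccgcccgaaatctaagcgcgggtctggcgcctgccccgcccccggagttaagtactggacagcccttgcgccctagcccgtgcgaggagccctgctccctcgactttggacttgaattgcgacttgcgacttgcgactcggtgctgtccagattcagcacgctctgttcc
The *Pdgfra* promoter held 2 of these motifs, the *Matn4* promoter shown 3 and that of *Cspg4* 0. The table gives a second start for *Matn4*, whose promoter (not shown) held 1. The promoter of *Lhfpl3* held 2. Of all 32851 mouse promoters of this length, 72.3% held at least 1, 39.6% at least 2 and 17.6% at least 3. A match of these letters is a description, not a site. *C1ql1* and *Cacng4* were not matched.

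OPCs were selected on the UMIs of these 6 markers, the 2 mitotic genes and the 5 differentiation genes, so their levels describe the choice and carry no test. Levels are given as CPM, a gene's UMIs scaled to a fixed total of UMIs after summing all barcodes of a class in a library, and wherever a pair of levels stands it is for library 1 and then library 2. *Pdgfra* reached 1179 (1119 to 1241) and 1395 (1339.8 to 1453) CPM in OPCs, where brackets hold exact 95% Poisson intervals, which cover counting error only. *C1ql1*, which encodes a secreted C1q-like protein, stood at 1486 and 1317 CPM. *Lhfpl3* stood at 795 and 1084 CPM and *Matn4*, which encodes a matrilin of the extracellular matrix, at 906 and 823 CPM. *Cacng4*, whose product accompanies AMPA-type glutamate receptors, stood at 534 and 625 CPM, with 114 and 73.5 CPM in neurons. *Cspg4* stood at 632 and 529.9 CPM in OPCs, and mural cells, the pericytes and smooth muscle of vessels, had about as much at 535 and 599.8 CPM. With each barcode thinned to 2000 UMIs, a *Pdgfra* UMI was present in 85.5% and 91.1% of OPCs and in 0.246% and 0.456% of microglia, a class that should lack it and so gives the background of free RNA. Of the differentiation genes, *Gpr17* was far from absent in OPCs, since the rule allows up to 2 of the 5. It stood at 596 and 499.8 CPM, below the 909 and 705 CPM of the differentiating class.

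The lineage of the cells was checked on genes that the rule did not use. *Olig2* stood at 1109.7 and 871 CPM in OPCs and 30.5 and 24.5 in astrocytes. *Sox10* stood at 449.8 and 515 CPM in OPCs and 5.92 and 6.19 in astrocytes. Both libraries thus carried the regulators of the lineage at levels far above those of astrocytes. These 2 genes do not tell precursors from later stages. *Olig2* was at 632 and 468 CPM in differentiating cells, and *Sox10* did not pass against either oligodendrocyte class below. In the search for genes that set OPCs apart from classes other than differentiating cells, 3895 genes were at 50 or more CPM in OPCs of both libraries. Of these, 44 exceeded each class other than differentiating cells by 5-fold or more in both. Besides 5 genes of the rule, these were 39 genes, led by *Neu4*, *C1ql2*, *Irx1*, *Shc4* and *Megf11*. *Neu4* encodes a sialidase, *Irx1* a homeobox factor, *Shc4* an adaptor of receptor tyrosine kinases. For 8 of the 39, differentiating cells of both libraries had at least 50% of the OPC level. *Neu4*, which led the 39, was 1 of these 8, at 390 and 368 CPM in OPCs and 282 and 290 in differentiating cells. *Shisal1*, another of them, was lower in OPCs, at 65.2 and 84.4 against 225 and 227 CPM. A level in a class sum does not tell fewer expressing cells from less RNA per cell.

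**Figure D1:**
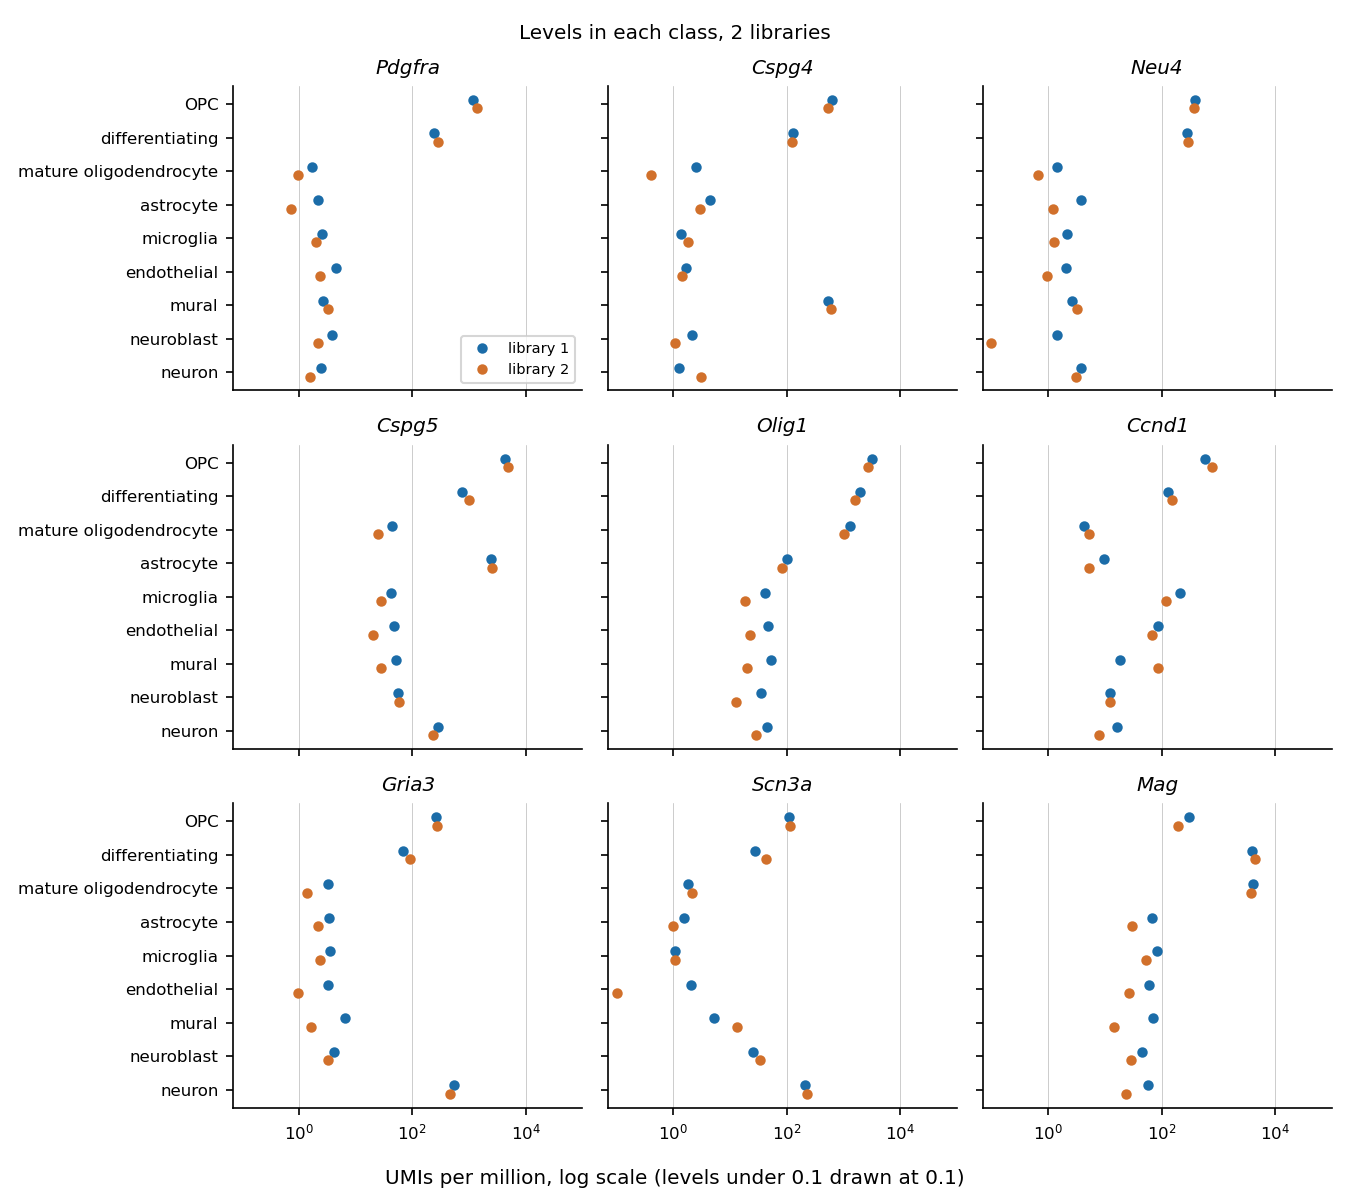
Levels of 9 genes in 9 cell classes, as CPM on a log axis, with 1 point for each library and levels under 0.1 CPM drawn at 0.1. *Pdgfra* and *Ccnd1* were high in OPCs and lower in the differentiating class in both libraries, *Cspg4* was about as high in mural cells as in OPCs, and *Mag* was highest in mature and differentiating oligodendrocytes.

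OPCs made up 2.93% of barcodes in library 1 (exact binomial 95% interval 2.54 to 3.35%) and 5.01% in library 2 (4.45 to 5.63%). The intervals of the libraries did not overlap, and they cover counting error only. The labels name 2 versions of the 10x kit and 2 sequencers without assigning them to libraries, so a difference between the libraries cannot be told apart from one between kits or sequencers. The median OPC held 5742 UMIs and 2937 genes in library 1 and 6569 UMIs and 3245 genes in library 2, with 4.25% and 4.71% of UMIs from mitochondrial genes. A barcode shared by both libraries occurred 9 times, and in no case was it an OPC in both. All 6 markers were detected in 121 OPCs of library 1 (59.9%) and 177 of library 2 (65.8%).

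The edges of the rule held barcodes with less *Pdgfra* and more *Mag*. The 20 and 19 members with exactly 3 markers had medians of 1838.5 and 1718 UMIs. In their sums, in which deep barcodes weigh more, *Pdgfra* stood at 98.1 and 797 CPM and *Mag*, which encodes the myelin-associated glycoprotein, at 1514 and 870.0, with *Mag* UMIs in 8 of the 20 and 4 of the 19. Just outside, 124 and 94 barcodes had 2 markers, with 26.9 and 67.5 CPM of *Pdgfra* and 2068 and 2220.4 of *Mag*. Members with all 6 markers had 1284 and 1371 CPM of *Pdgfra* and 50.5 and 148 of *Mag*. On the side of differentiation, 105 and 154 OPCs had 2 of the 5 differentiation genes, and 82 and 80 further barcodes with at least 3 markers had 3 of them. These last were deeper, with medians of 8957.5 and 8883 UMIs, and *Pdgfra* in them was at 1023 and 1183 CPM. A limit on the number of genes detected acts harder on deep barcodes. Of the 4500 and 4084 barcodes deep enough to be thinned to 2000 UMIs, 3.53% and 5.48% were OPCs at full depth and 5.44% and 7.13% after thinning. Of those OPCs, 149 of 159 and 216 of 224 were still called after thinning, while 50 of 169 and 49 of 159 differentiating barcodes became OPCs, as did 46 and 26 barcodes that had been in neither class. On the side of division, 32 and 26 barcodes had at least 3 markers and a UMI of *Mki67* or *Top2a*.

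**Figure D2:**
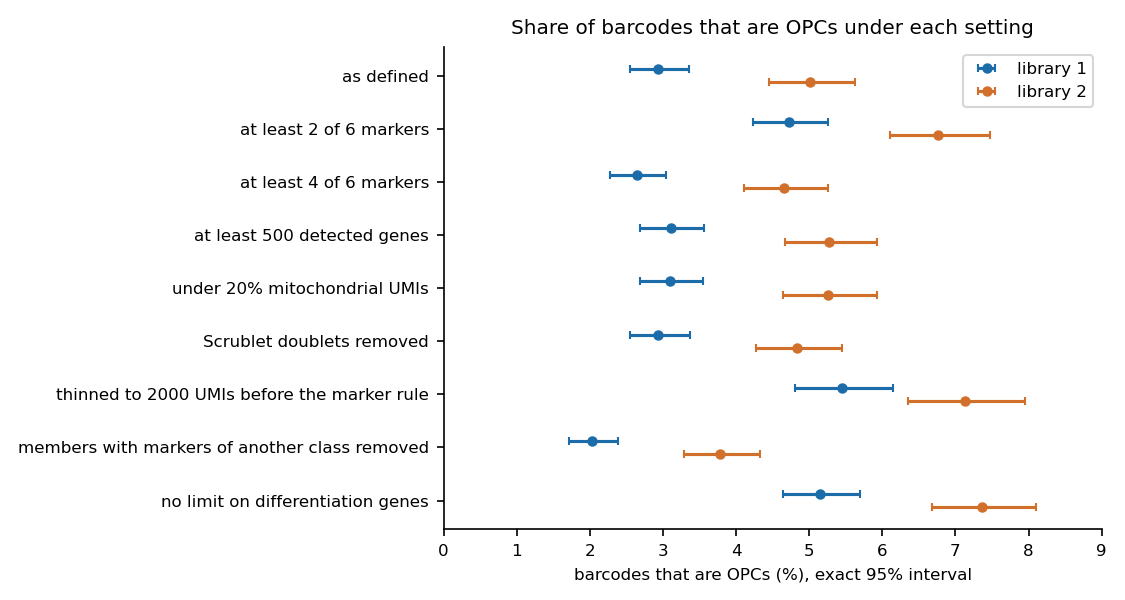
Share of barcodes called OPCs, in percent, under 9 settings in library 1 and library 2, with exact binomial 95% intervals as bars. Library 2 lay above library 1 at every setting, and the share was highest with thinning to 2000 UMIs and without the limit on differentiation genes (5.15 and 7.36%). The thinned share is of the barcodes deep enough to thin.

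Some members also carried markers of other classes. At least 3 of the markers fixed for another class were found in 62 OPCs of library 1 (30.7%) and 66 of library 2 (24.5%), called mixed members here. The mature oligodendrocyte list was behind 31 and 13 of them, the neuron list behind 19 and 29, the astrocyte list behind 8 and 11, and the microglia list behind 3 and 9. Every list of 6 genes for these 4 classes had all its genes detected in OPC sums, and no gene of them was at 0. Summed over OPCs, the mature oligodendrocyte list stood at 1004 and 576 CPM, against 10652 and 9907 in its own class. Its most abundant gene was *Mobp*, at 421 and 186 CPM. The neuron list summed to 509 and 445 CPM, led by *Snhg11* at 278 and 283. The microglia list summed to 143 and 441 CPM, led by *Csf1r* in library 1 (37.8 CPM) and *Cx3cr1* in library 2 (110.9 CPM). The astrocyte list summed to 249 and 130.4 CPM, led by *Slc7a10*. Endothelial markers summed to 40.2 and 195 CPM, led by *Cldn5*, mural markers to 122 and 293 CPM, led by *Rgs5* in library 1 and *Vtn* in library 2, and neuroblast markers to 210.0 and 27.7 CPM, led by *Igfbpl1*. Markers of fibroblasts were nearly absent, with *Slc6a13* at 0 in library 1 and *Col1a1*, *Dcn* and *Lum* at 0 in library 2. Haemoglobin RNA was uneven, with *Hbb-bs* at 1297 CPM in library 1 and 16.5 in library 2. Scrublet, which scores barcodes against simulated doublets, marked 3 and 17 OPCs. Without the mixed members, *Mag* stood at 76.6 and 32.7 CPM, against 305 and 191 in all OPCs, and *Pdgfra* stood at 1478 and 1534. The comparisons below with differentiating cells, mature oligodendrocytes and astrocytes were repeated without mixed members. Those with parts of the differentiating class were not. The other classes were built without barcodes that met the rule of a second class, save that the differentiating class kept those with mature oligodendrocyte or erythroid markers, so OPCs and the other classes were not filtered alike.

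For the comparisons, UMIs were summed for each class in each library and 9 classes were fitted together in edgeR with the library as a block. Genes used to choose any cells were left out, so 14795 genes were tested, and "rose" and "fell" are used for an adjusted p under 0.05, with higher and lower levels in OPCs. Fold changes are log2 values with their standard errors, from 2 libraries for each class. The cells were sorted by RNA of the same libraries, so that genes which vary with the markers had to differ, and the tests give the size and spread of a difference, not independent evidence for the classes. The fit scaled sums by TMM factors, which were 1.35 and 1.38 for OPCs, 1.06 and 1.11 for differentiating cells, 0.736 and 0.718 for mature oligodendrocytes and 0.990 and 1.00 for astrocytes. A fitted log2 fold change is therefore lower than the log2 ratio of CPM. With library sizes alone the median over all genes moved from 0.05 to 0.36 against differentiating cells, from -0.10 to 0.69 against mature oligodendrocytes and from -0.004 to 0.42 against astrocytes. The share of all genes that rose was then 25.7, 51.8 and 37.4%, and 8.54, 10.4 and 12.2% fell. With barcodes thinned to 2000 UMIs 4.10, 20.9 and 13.4% rose and 4.69, 17.3 and 14.3% fell. List counts under these settings stand beside these shares.

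Against differentiating oligodendrocytes, the 178 and 169 barcodes with at least 3 of the 5 differentiation genes, most genes of the fixed lists of OPC genes, of glutamate and GABA receptors and of ion channels were higher in OPCs, and all genes of the myelin and cholesterol synthesis lists were lower. Of all genes tested, 4531 passed the threshold (30.6%), with 2207 higher in OPCs (14.9%) and 2324 lower (15.7%). *Cspg5*, which encodes the proteoglycan neuroglycan C, was at 4242 and 4852 CPM in OPCs and 757 and 1009 in differentiating cells (2.03 ± 0.26, edgeR adjusted p = 1.6e-05). *Ptprz1*, a receptor-type phosphatase of the proteoglycan family, was at 3576 and 4459 against 954 and 1238 CPM (1.54 ± 0.35). *Pcdh15*, a protocadherin, was at 404 and 441 against 92.8 and 114 CPM (1.70 ± 0.24). In each case both libraries of OPCs lay above both sums of the other class. Of 18 genes known from OPCs and outside the rule, 12 rose and 0 fell, with a median of 1.13 against 0.05 over all genes. Of 20 matrix and adhesion genes 9 rose and 2 fell (median 0.72). *Tnr* and *Neu4* were among the 6 OPC genes that did not pass, at -0.34 ± 0.26 and 0.07 ± 0.18.

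Lineage transcription factors were found in both directions. *Hes5*, a target of Notch that holds back differentiation, stood at 352 and 552 CPM in OPCs and 92.4 and 154 in differentiating cells (1.55 ± 0.28). *Id4* rose too, at 74.0 and 22.4 against 8.99 and 6.52 CPM (2.10 ± 0.42), with the OPC library 1 well above library 2. On the other side, *Myrf*, the master regulator of myelin genes, was at 29.0 and 25.4 CPM in OPCs and 217 and 206 in differentiating cells (-3.25 ± 0.19). *Nkx6-2* (-2.86), *St18* (-3.10) and *Zfp536* (-2.08) fell with it. Of 22 lineage factors 11 rose and 6 fell (median 0.47), beside 14.9 and 15.7% of all genes. With barcodes thinned to 2000 UMIs 5 rose and 4 fell, where 4.10% of all genes rose and 4.69% fell. *Olig1*, *Sox10*, *Sox8* and *Sox4* were among the 5 that did not pass at full depth. *Sox10* was at 449.8 and 515 CPM in OPCs and 465 and 500.5 in differentiating cells.

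All 15 myelin genes fell (median -3.19, and -4.49 without mixed members). Mixed members were removed from OPCs alone. In the differentiating class 63 and 47 barcodes (35.4% and 27.8%) had at least 3 mature oligodendrocyte markers and were kept. The part of this in the larger falls was not tested. With the classes called on thinned barcodes 12 myelin genes fell and 1 rose, *Gjb1*. Of the 20 matrix and adhesion genes 10 rose and 6 fell there, beside 15.7 and 14.4% of all genes. *Mag* was at 305 and 191 CPM in OPCs and 3916 and 4405 in differentiating cells (-4.49 ± 0.32, and -6.74 without mixed members). *Nfasc*, which encodes neurofascin of the axon-glia junction, was at 121 and 89.7 against 1716 and 1984 (-4.48 ± 0.27). All 14 cholesterol synthesis genes fell as well (median -1.94), and 11 fell with barcodes thinned to 2000 UMIs (-1.17). *Hmgcs1*, an early enzyme of the pathway, was at 94.1 and 90.3 CPM in OPCs and 544 and 559 in differentiating cells (-2.91 ± 0.18).

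The 10 largest falls named by a fixed rule on effect size were *9630013A20Rik*, *Onecut2*, *Gm36988*, *Cnksr3*, *Rassf10*, *9530059O14Rik*, *Rras2*, *Mag*, *Nfasc* and *Parvb*. The noncoding transcript *9630013A20Rik* was at 12.9 and 2.95 CPM in OPCs and 651 and 657 in differentiating cells (-6.68 ± 0.32). *Onecut2*, a homeobox factor, was at 4.02 and 1.18 against 77.3 and 121 CPM (-5.24 ± 0.47). *Cnksr3*, a scaffold protein, was at 9.66 and 1.18 against 152 and 122 (-4.92 ± 0.33). These 3 were nearly silent in OPCs of both libraries. The 10 largest rises were *C1qa*, *C1qc*, *C1qb*, *Tyrobp*, *Cacna1e*, *Ebf1*, *Inpp4b*, *Ctss*, *Nrxn3* and *Rian*. Of these, *C1qa*, *C1qb*, *C1qc*, *Tyrobp* and *Ctss* are genes of microglia, where *C1qa* was at 10452 and 9837 CPM. *C1qa* was at 174 and 246 CPM in OPCs and 23.0 and 22.4 in differentiating cells (2.92 ± 0.42). Without mixed members it was at 70.8 and 22.1 CPM in OPCs, and the fold change was 0.48 (adjusted p = 0.371) in edgeR. None of these 5 passed without mixed members, and the part of microglial RNA in them beyond this was not tested. *Cacna1e*, which encodes an R-type calcium channel, was at 54.7 and 50.7 against 7.55 and 7.74 CPM (2.37 ± 0.27). It passed without mixed members too, at 2.35 (adjusted p = 8.4e-06) in edgeR.

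The differentiating class was then divided at the marker rule of OPCs, a division made after the data had been examined. Barcodes that still had 3 or more OPC markers numbered 107 and 91, and those with fewer, called marker-poor here, numbered 71 and 78. The former are called marker-bearing. Between OPCs and the first set 947 of 14438 genes passed (6.56%; 469 higher in OPCs, 3.25%, and 478 lower, 3.31%). Between OPCs and the second set 6355 of 14432 passed (44.0%; 3084 higher, 21.4%, and 3271 lower, 22.7%). The 2 sets are successive only by their markers, and no order in time was measured. *Tnr*, which encodes the matrix glycoprotein tenascin-R, stood at 691 and 826 CPM in OPCs, 1288 and 1300.2 in the marker-bearing set, 356 and 365 in the marker-poor set and 4.37 and 0.982 in mature oligodendrocytes. *Neu4* went from 390.3 and 368 to 561 and 600.2 and then 53.0 and 58.4 CPM. It was lower in OPCs than in the marker-bearing set (-0.64 ± 0.18, edgeR adjusted p = 0.046) and higher than in the other (2.15 ± 0.22). *Nkx2-2*, a homeobox factor that acts at the start of differentiation, stood at 71.6 and 105 CPM in OPCs, 231 and 219 in the marker-bearing set (-1.41 ± 0.24) and 31.4 and 30.6 in the marker-poor set.

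Of the myelin list, *Bcas1* and *Sirt2* were among the 10 genes higher in the marker-bearing set than in OPCs. *Bcas1*, a gene of early myelinating cells, was at 165 and 207 CPM in OPCs and 1319.8 and 1304 in that set (-2.79 ± 0.31). *Sirt2*, a deacetylase of the myelin sheath, was at 484 and 489 against 3471 and 2776 (-2.69 ± 0.15). *Col9a3*, a collagen gene of the matrix list, was at 152 and 143 against 406 and 359 (-1.39 ± 0.15). The levels of *Mag* and of *Hmgcs1*, of the cholesterol list, were highest in the marker-poor set. *Mag* was at 479 and 359.5 CPM in the marker-bearing set (-0.81 ± 0.25, not passed) and 6729 and 7434 in the marker-poor set. OPCs without mixed members had less *Mag*, 76.6 and 32.7 CPM, and this comparison was not repeated on them. *Hmgcs1* was at 157 and 96.1 CPM in the marker-bearing set and 860.5 and 906 in the marker-poor set. Of the 15 myelin genes, 10 were lower in OPCs than in the marker-bearing set (median -1.10) and 15 than in the marker-poor set (-3.77). Of the 14 cholesterol genes the numbers were 0 (-0.36) and 14 (-2.73). Medians over all genes were 0.14 and 0.07. Against the marker-bearing set, 6 of the 18 OPC genes were higher in OPCs and 1 was lower, *Neu4*. Other lists also had fewer genes past the threshold against this set than against the whole class, with 5 higher and 1 lower of 20 matrix and adhesion genes, 3 and 3 of 22 lineage factors, and 0 of 26 cell cycle genes. Whether the myelin and cholesterol lists differ in their timing was not tested. OPCs were shallower than the marker-bearing set, whose medians were 9731 and 9687 UMIs, and the part of depth was not tested.

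**Figure D3:**
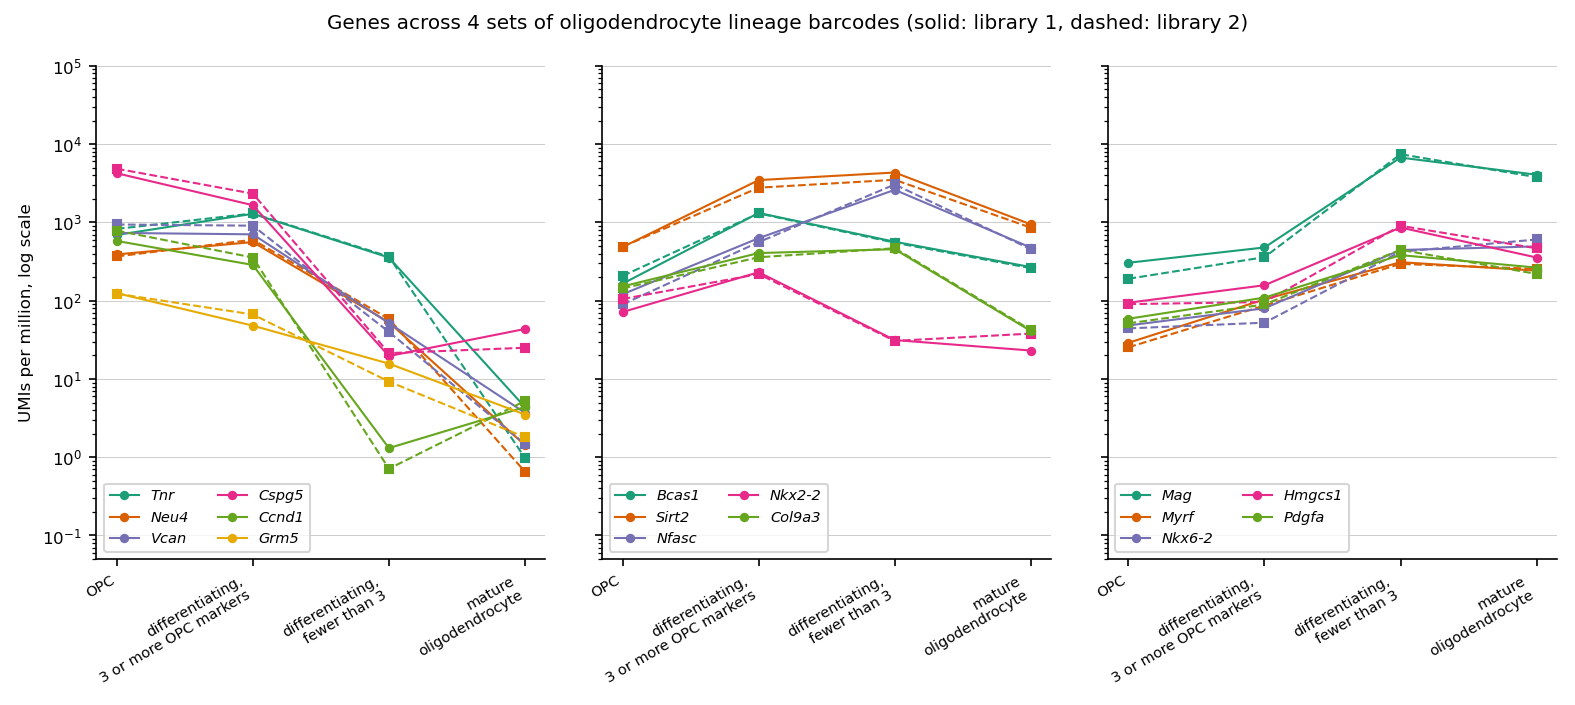
Levels as CPM on log axes in 4 sets of barcodes, from OPCs through differentiating barcodes with 3 or more OPC markers and with fewer to mature oligodendrocytes, with solid lines for library 1 and dashed lines for library 2. *Tnr* and *Neu4* were highest in the differentiating set with 3 or more OPC markers, *Bcas1* and *Nkx2-2* peaked there too, and *Mag* stood at 305 and 191 CPM in OPCs and 479 and 359.5, 6729 and 7434 and 4063 and 3781 in the sets that follow.

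Against mature oligodendrocytes most matrix, receptor and channel genes of the lists were higher in OPCs, and all myelin genes were lower. Of 14795 genes 8200 passed (55.4%), 3557 higher in OPCs (24.0%) and 4643 lower (31.4%). With library sizes alone in place of TMM, 83.2% of the genes called were higher in OPCs, against 43.4% with TMM, so the balance of directions rests on the scaling. The 10 largest rises were *Olfm2*, *Nxph1*, *Vcan*, *Tnr*, *Neu4*, *Plpp4*, *Ptprz1*, *Emid1*, *Cdo1* and *Lnx1*. *Olfm2*, which encodes a secreted olfactomedin, was at 657 and 559 CPM in OPCs and 1.99 and 0.982 in mature oligodendrocytes (7.39 ± 0.44, edgeR adjusted p = 2.0e-10). *Vcan*, the proteoglycan versican, was at 734 and 939.9 against 3.70 and 1.47 CPM (7.21 ± 0.27). *Plpp4* was at 129 and 132 CPM in OPCs, and 3 UMIs of it were counted in all mature oligodendrocytes. These genes were close to the floor in mature cells of both libraries. The 10 largest falls were *Klk6*, *Anln*, *Apod*, *Trf*, *Serpinb1a*, *C030029H02Rik*, *Cldn11*, *Mag*, *Lpar1* and *Plin3*. *Klk6*, a secreted protease of mature oligodendrocytes, was at 0 and 2.95 CPM in OPCs and 236 and 176 in mature cells (-7.21 ± 0.44). *Trf*, which encodes the iron carrier transferrin, was at 438 and 279.7 against 6502 and 6577 CPM (-5.18 ± 0.31). Without mixed members the fall of *Trf* was -7.54, that of *Mag* -7.21 and that of *Lpar1* -7.67. *Lpar1*, a receptor for lysophosphatidic acid, was at 44.3 and 27.7 against 597 and 564 CPM (-4.93 ± 0.24).

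By group, 15 of the 18 OPC genes outside the rule rose and 1 fell, *Lrrn1* (median 5.80 against -0.10 over all genes). In DESeq2, with library sizes alone and with thinned barcodes 0 of them fell. Of the 20 matrix and adhesion genes 17 rose and 0 fell (4.59). *Sdc3*, a syndecan, was at 397 and 409 CPM in OPCs and 3.70 and 1.96 in mature cells (6.05 ± 0.25). All 15 myelin genes fell (-4.07). *Mag* was at 305 and 191 CPM in OPCs and 4063 and 3781 in mature cells (-4.97 ± 0.33). All 14 cholesterol genes fell (-2.22), and with library sizes alone 9 fell and 1 rose, while 10 fell with thinned barcodes. Of 22 lineage factors 13 rose and 4 fell (0.83). Over all genes 24.0% rose and 31.4% fell, so the 18.2% of lineage factors that fell was below this share. The shares of all genes were 51.8 and 10.4% with library sizes alone, and 20.9 and 17.3% with thinned barcodes. *Sox6*, which keeps precursors immature, was at 216 and 273 against 2.18 and 0.245 CPM (6.33 ± 0.40). *Olig2* was at 1109.7 and 871 against 218 and 135 (1.61 ± 0.20). *Sox10* was at 449.8 and 515 against 270.4 and 372 CPM and did not pass in edgeR (-0.33 ± 0.17 under TMM). With library sizes alone it turned and passed, at 0.59.

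Against astrocytes, the other abundant glia of the suspension, 5929 of 14795 genes passed (40.1%), 2822 higher in OPCs (19.1%) and 3107 lower (21.0%). The 10 largest rises were *Nxph1*, *Pcdh15*, *Sema3d*, *Qpct*, *Tmem255b*, *Opcml*, *Lrrtm3*, *Dscam*, *Neu4* and *Ptpre*. *Sema3d*, a secreted semaphorin, was at 146 and 145 CPM in OPCs and at 0 in astrocytes, at least 255-fold higher under TMM, and 350.4-fold in CPM, with 3 UMIs over both astrocyte sums as the floor. *Opcml*, an adhesion molecule of the IgLON family, was at 742 and 697 against 4.05 and 3.47 CPM (6.91 ± 0.24, edgeR adjusted p = 6.9e-12). *Lrrtm3*, which encodes a synaptic leucine-rich repeat protein, was at 233 and 216 against 2.18 and 0 CPM (6.67 ± 0.39). These 3 genes were near 0 in astrocytes of both libraries. *Nxph1* was at 362 and 413 CPM in OPCs and had 3 UMIs in all astrocytes, and *Tmem255b* was at 138 and 158 CPM and had 1.

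The 10 largest falls were *Gdf10*, *Rmst*, *Slc7a11*, *Grin2c*, *Phkg1*, *Cth*, *Etnppl*, *C030005K06Rik*, *Fxyd1* and *Gm9925*. *Gdf10*, a growth factor of the TGF-β family, was at 0 in OPCs and at 73.8 and 75.0 CPM in astrocytes, at least 100.2-fold lower under TMM, and 72.9-fold in CPM, with 3 UMIs over both OPC sums as the floor. *Slc7a11*, the cystine-glutamate exchanger, was at 12.1 and 0 against 263 and 351 CPM (-6.19 ± 0.46). *Grin2c*, an NMDA receptor subunit, was at 8.05 and 3.54 against 338 and 261 CPM (-6.02 ± 0.38). These are genes that OPCs of both libraries barely held. *Cth*, which makes cysteine from cystathionine, had 2 UMIs in all OPCs and 67.3 and 70.6 CPM in astrocytes. *C030005K06Rik* and *Gm9925* had 3 UMIs each in OPCs.

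Several OPC genes did not pass against astrocytes, or fell. *Cspg5* was at 4242 and 4852 CPM in OPCs and 2491 and 2536 in astrocytes and did not pass (0.41 ± 0.25). *Ednrb*, the endothelin receptor B, was at 784 and 828 against 519 and 719 CPM and did not pass (-0.09 ± 0.23). *Gpr37l1* fell (-1.64 ± 0.22). In all, 15 of the 18 OPC genes rose and 1 fell (median 2.75 against -0.004 over all genes). Of the 20 matrix genes 8 rose and 7 fell, with a median of -0.22 that was 0.24 with library sizes alone and 0.05 with thinned barcodes. *Cntn1*, an adhesion molecule, was at 835 and 1120.5 against 19.0 and 23.8 CPM (5.01 ± 0.19), and *Hapln1*, a link protein of the matrix, at 25.7 and 24.2 against 223 and 192 (-3.46 ± 0.31). Of the 22 lineage factors 12 rose and 7 fell (1.36), or 13 and 4 with library sizes alone and 10 and 7 with thinned barcodes (0.41). Over all genes 19.1% rose and 21.0% fell, or 37.4 and 12.2% with library sizes alone and 13.4 and 14.3% with thinned barcodes. The falls among lineage factors under TMM included *Id2*, *Id3* and *Id4*, inhibitors of basic helix-loop-helix factors. *Id4* was at 74.0 and 22.4 CPM in OPCs and 788 and 895 in astrocytes (-4.75 ± 0.31). All 14 cholesterol genes fell here too (-1.91), among them *Msmo1*, a sterol oxidase, at 97.4 and 96.8 against 1113 and 1099 CPM (-3.95 ± 0.21). Of the 15 myelin genes 14 rose (1.92), but without mixed members 7 rose and the median was 0.31. *Cnp* then went from 0.61 ± 0.24 to -0.35 and no longer passed.

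**Figure D4:**
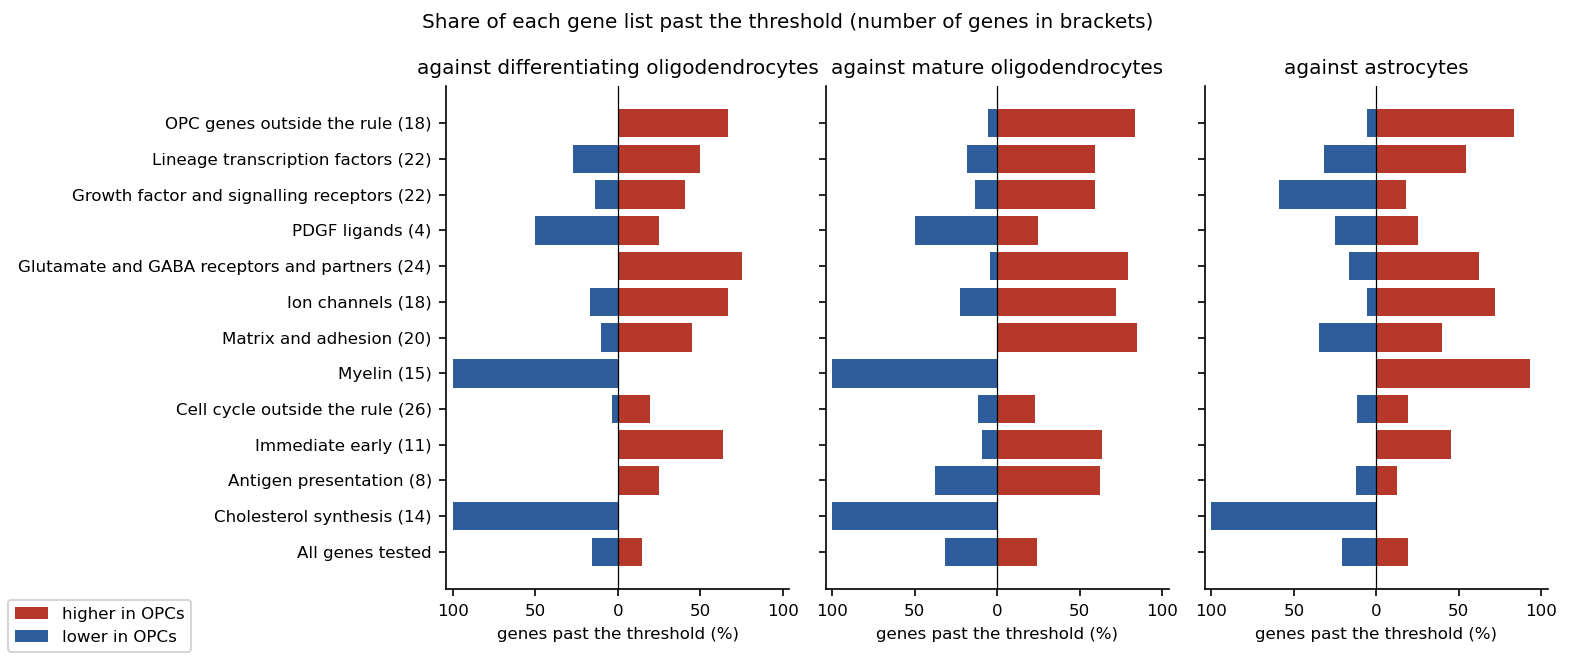
Percent of each gene list higher or lower in OPCs (edgeR, adjusted p under 0.05) against differentiating oligodendrocytes, mature oligodendrocytes and astrocytes, with the same for all 14795 genes tested. All 14 cholesterol genes were lower in OPCs in all 3 comparisons, with 9 of 14 against mature oligodendrocytes with library sizes alone, and the myelin list was lower than in both oligodendrocyte classes and higher than in astrocytes, a rise that shrank without mixed members.

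Neurotransmitter receptors were measured as a list of 24 genes of glutamate and GABA receptors and their partners. Of these, 18 rose and 0 fell against differentiating cells (median 1.14), 19 rose and 1 fell against mature oligodendrocytes (3.26), and 15 rose and 4 fell against astrocytes (1.49), or 16 and 1 with library sizes alone. Over all genes 14.9, 24.0 and 19.1% rose and 15.7, 31.4 and 21.0% fell under TMM, in the same order. Against differentiating cells, 8 rose with barcodes thinned to 2000 UMIs, where 4.10% of all genes rose, and 6 against the marker-bearing set, where 3.25% did. *Gria3*, a subunit of AMPA receptors, was at 259.9 and 272 CPM in OPCs, 70.1 and 92.9 in differentiating cells, 3.32 and 1.39 in mature oligodendrocytes and 3.43 and 2.23 in astrocytes. Neurons had 545 and 462 CPM. *Grin3a*, an NMDA receptor subunit, was at 130.4 and 180.0 CPM in OPCs and 0.854 and 1.15 in mature cells (5.83 ± 0.45). *Grm5*, a metabotropic receptor, was at 125 and 123 against 30.2 and 33.8 CPM in differentiating cells (1.60 ± 0.20). Against astrocytes the exceptions were *Gabrb1*, *Gabbr1*, *Grin2b* and *Shisa9*, and *Gabrb1*, a GABA-A receptor subunit, was at 86.1 and 60.2 CPM in OPCs and 437 and 466 in astrocytes (-3.08 ± 0.23). *Gabbr1*, a GABA-B subunit, fell against mature oligodendrocytes under TMM (-0.60 ± 0.14) and was at 0.31, not passed, with library sizes alone. *Snhg11*, the leading neuronal marker, stood at 278 and 283 CPM in OPCs, and the part of neuronal RNA in these receptor levels beyond the removal of mixed members was not tested.

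Ion channels were a list of 18. Of the 18 channel genes 12 rose and 3 fell against differentiating cells (median 1.43), 13 rose and 4 fell against mature oligodendrocytes (2.88) and 13 rose and 1 fell against astrocytes (2.42). The shares of all genes were 14.9, 24.0 and 19.1% that rose and 15.7, 31.4 and 21.0% that fell. Against differentiating cells the count was 8 and 1 with barcodes thinned to 2000 UMIs, and 5 and 0 against the marker-bearing set (0.80). Beside these, 4.10 and 3.25% of all genes rose. *Scn3a*, a voltage-gated sodium channel, was at 111 and 112 CPM in OPCs, 1.80 and 2.13 in mature cells and 1.56 and 0.991 in astrocytes (5.46 ± 0.37 against astrocytes). Neurons had 205 and 227 CPM. *Kcnip3*, a calcium-binding partner of A-type potassium channels, was at 274 and 424 against 54.3 and 83.9 CPM in differentiating cells (2.00 ± 0.22). *Kcna1*, a potassium channel subunit, went the other way, at 61.2 and 51.9 CPM in OPCs and 471 and 425 in mature cells (-3.88 ± 0.27). The fall against astrocytes was *Kcnk1*, a potassium leak channel, at 140.0 and 129 against 939 and 757 CPM (-3.09 ± 0.26).

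Of 22 growth factor and signalling receptors outside the rule, 9 rose and 3 fell against differentiating cells (median 0.72, and 16 and 2 with library sizes alone, where 25.7% of all genes rose), 13 and 3 against mature oligodendrocytes (1.32) and 4 and 13 against astrocytes (-0.91). Under TMM 14.9, 24.0 and 19.1% of all genes rose and 15.7, 31.4 and 21.0% fell. The 18.2% of the list that rose against astrocytes was near this background, and 59.1% of it fell. Against differentiating cells 5 rose and 2 fell of 21 with thinned barcodes, and 5 rose and 0 fell against the marker-bearing set, beside 4.10 and 3.25% of all genes that rose. *Ntrk3*, the receptor of neurotrophin-3, was at 142 and 166 CPM in OPCs and 21.6 and 44.0 in differentiating cells (1.92 ± 0.22). *Fgfr2* was at 16.1 and 25.4 CPM in OPCs and 209 and 291 in mature oligodendrocytes (-4.42 ± 0.28). *S1pr1*, a sphingosine-1-phosphate receptor, was at 53.1 and 37.8 CPM in OPCs and 944 and 1211 in astrocytes (-5.03 ± 0.26). *Egfr* was near the floor in OPCs, at 3.22 and 1.18 CPM against 69.1 and 93.6 in astrocytes (-5.27 ± 0.49). *Erbb3*, a neuregulin receptor, was at 69.2 and 90.9 against 2.18 and 1.49 CPM (4.60 ± 0.45).

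The PDGF ligand genes had their highest levels outside OPCs. *Pdgfa*, which encodes the ligand of PDGF receptor α, was at 58.7 and 51.3 CPM in OPCs, 109 and 89.4 in marker-bearing differentiating cells, 382 and 447 in marker-poor ones and 265 and 219 in mature oligodendrocytes (-3.03 ± 0.17 against mature cells, edgeR adjusted p = 2.1e-10). Mural cells held 280.5 and 293 CPM, and astrocytes 22.1 and 18.6. Thus the sets with the most *Pdgfa* were differentiating and mature oligodendrocytes and mural cells, in both libraries. *Pdgfb*, which encodes the chain that signals mainly to mural cells, was at 3.22 and 10.0 CPM in OPCs and 378 and 463 in endothelial cells. *Pdgfd* was at 0 and 4.13 CPM in OPCs and 73.7 and 54.8 in endothelial cells, and *Pdgfc* at 5.63 and 4.13 CPM in OPCs. Of the 4 ligand genes, 1 rose and 2 fell against differentiating cells and against mature oligodendrocytes, and 1 rose and 1 fell against astrocytes. The rise was that of *Pdgfb* against both oligodendrocyte classes and of *Pdgfa* against astrocytes. Without mixed members 0 rose in all 3 comparisons. Over all genes 14.9, 24.0 and 19.1% were higher in OPCs and 15.7, 31.4 and 21.0% lower, and 4 genes are too few to set against these shares.

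**Figure D5:**
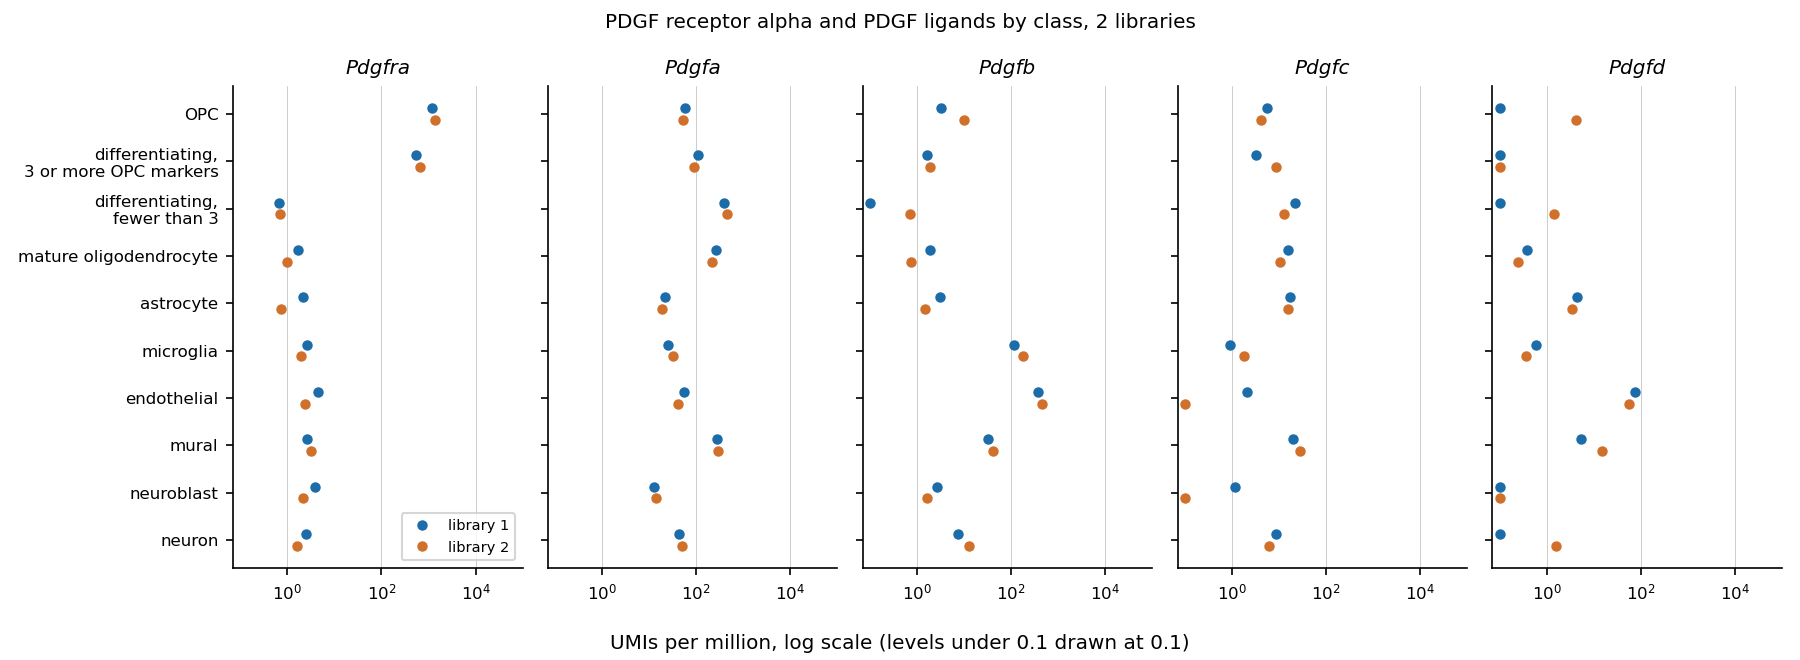
Levels of *Pdgfra* and the 4 PDGF ligand genes by cell class, as CPM on a log axis, with 1 point for each library and the differentiating class also shown by its OPC markers. *Pdgfra* was highest in OPCs, *Pdgfa* was highest in differentiating barcodes with fewer than 3 OPC markers, and *Pdgfb* was highest in endothelial cells.

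Cells with *Mki67* or *Top2a* were left out by the rule, and other mitotic genes were low. *Cdk1*, the kinase that starts mitosis, was at 2.41 and 1.77 CPM in OPCs and 291 and 180.2 in the 32 and 26 barcodes with OPC markers and *Mki67* or *Top2a*, which are given as a description only. *Ccnd1*, which encodes cyclin D1 of the G1 phase, was at 579 and 785 CPM in OPCs, 375 and 721 in those barcodes and 129 and 153 in differentiating cells (1.94 ± 0.33). Mature oligodendrocytes had 4.37 and 5.23 CPM (6.10 ± 0.41) and astrocytes 9.65 and 5.20 (5.96 ± 0.43). The low level of *Cdk1* follows from the rule, which left out barcodes with mitotic RNA. Of the 26 cell cycle genes 5 rose and 1 fell against differentiating cells, 6 rose and 3 fell against mature oligodendrocytes and 5 rose and 3 fell against astrocytes. The genes that rose were 19.2, 23.1 and 19.2% of the list, near the 14.9, 24.0 and 19.1% of all genes. With library sizes alone the last 2 counts were 11 and 1, and 9 and 0, beside 51.8 and 37.4% of all genes that rose. Against differentiating cells the count was 2 and 0 with thinned barcodes, and against astrocytes it was 10 and 1 with classes called on thinned barcodes, where 20.6% of all genes rose.

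Immediate early genes, which neurons and glia switch on within minutes of stimulation or dissociation, were measured as a list of 11. The paper states that actinomycin D was present during dissociation to prevent transcription changes from stress. *Fos* was at 4.83 and 15.3 CPM in OPCs, 1.08 and 1.22 in differentiating cells and 443 and 683 in endothelial cells. Of the 11 genes 7 rose and 0 fell against differentiating cells (median 1.66), but without mixed members 2 rose (0.80). Against mature oligodendrocytes 7 rose and 1 fell, and without mixed members 2 rose and 1 fell. Against astrocytes 5 rose and 0 fell, and without mixed members 2 rose and 1 fell. Of all genes, 12.4, 21.2 and 17.0% rose in the 3 comparisons without mixed members, so 2 of 11 is near the background. Among 8 antigen presentation genes, *H2-D1*, a class I heavy chain, was at 186 and 220.1 CPM in OPCs, 60.4 and 77.4 in differentiating cells (1.23 ± 0.18), 25.8 and 22.0 in mature cells (2.15 ± 0.18) and 36.7 and 36.4 in astrocytes (2.00 ± 0.19). *B2m*, its light chain, rose against both oligodendrocyte classes. Counts for the 8 were 2 risen and 0 fallen, 5 and 3, and 1 and 1 in the 3 comparisons. With all members 14.9, 24.0 and 19.1% of all genes rose and 15.7, 31.4 and 21.0% fell. These 8 genes are few to set against such shares, and the 5 that rose against mature oligodendrocytes were 3 with thinned barcodes. The class II genes *H2-Aa* and *Cd74* were at 0 and 0 and at 1.61 and 0 CPM in OPCs.

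OPCs also varied among themselves. To describe this at 1 depth, 101 and 162 OPCs that were neither mixed nor marked as doublets were thinned to 2000 UMIs, and the Fano factor, the variance over the mean of a gene's UMIs between cells, was taken for 1779 genes with a mean of at least 0.2 UMIs. A factor of 1 is what counting alone gives, and the medians were 1.08 and 1.08. *Malat1*, a nuclear noncoding RNA, and mitochondrial transcripts led, followed by *Apoe*, with factors of 6.42 and 4.99. *Mbp*, a myelin gene, had 4.16 and 2.52, and was detected in 35.6% and 14.2% of these OPCs. *Hes5* had 1.84 and 2.53, and was detected in 34.7% and 58.0%. *Ccnd1* had 2.10 and 1.72, and was detected in 57.4% and 71.0%. *Gpr17*, a gene of the rule, had 1.86 and 1.62, and was detected in 71.3% and 57.4%. *Pou3f1*, a POU-domain factor, had 1.59 and 1.54, and was detected in 59.4% and 30.9%. *Ptprz1* had 2.16 and 2.20 and was detected in every one of these OPCs. These values carry no test, since cells of a library are not replicates. The part of free RNA in the detected shares was not tested.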

How the data were processed

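Dissociated striatum was profiled on the 10x Genomics platform. The authors deposited raw UMI counts per gene and barcode, without normalization, from Cell Ranger 4.0 on mm10 per the submitters' processing notes; the matrix header gives 4.0.0 and the paper another version. Counts held 6978 barcodes and 44597660 UMIs (library 1) and 5437 and 37982720 (library 2) over 32285 genes. Classes were rebuilt here from marker genes, and can differ from the classes of the study. The members and lists were chosen with earlier results of these data known. Sums per library and class (OPC, differentiating, mature oligodendrocyte, astrocyte, microglia, endothelial, mural, neuroblast, neuron) were fitted with edgeR 4.0.16 (TMM, filterByExpr, quasi-likelihood test, library as block, prior count 2; R 4.3.3), with Benjamini-Hochberg adjustment over 14795 genes at 0.05, and 8 residual degrees of freedom. The 66 genes used to choose cells were not tested. Genes were named as the 10 largest rises and falls past the threshold, in the same direction in both libraries and at 50 or more CPM in the higher class. Alternatives were DESeq2 1.42.0, library sizes alone, no filter, no block, doublets (Scrublet, scanpy 1.11.5, expected rate 6%) removed, mixed members removed, thinning, a mitochondrial limit, 2 classes alone and each library left out. The fit was tested on simulated data. Intervals are at 95%. Gene positions are from GENCODE M21. Some genes of the lists are counted but not reported here by name.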

Additional observations from a re-analysis of the deposited data

How the results depend on the processing

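The mean share of OPCs over both libraries was 3.97% and lay between 2.93 and 5.01% when a library was left out. It was 5.75% with at least 2 of 6 markers, 6.28% with barcodes thinned to 2000 UMIs before the rule, and 6.26% without the limit on differentiation genes, an alternative added after seeing the data. The thinned value counts only barcodes deep enough to thin, of which 3.53 and 5.48% were OPCs at full depth. The mean share moved by less than the spread between libraries with 4 markers, 500 genes, under 20% mitochondrial UMIs, doublets removed or mixed members removed. Genes past the threshold numbered 1058, 4607 and 3343 with barcodes thinned to 2000 UMIs, against 4531, 8200 and 5929 at full depth, for differentiating cells, mature oligodendrocytes and astrocytes. Fewer genes, 12039, were tested there. With only differentiating barcodes that had 3 or more OPC markers the count was 947. The other alternatives gave counts within 1.5 times, with 3654, 7566 and 5155 without the replicate block and 4100, 7399 and 5380 in DESeq2. All classes of a library share its suspension, which is why the library was a block. The share of called genes that were higher in OPCs was 75.1, 83.2 and 75.4% with library sizes alone, against 48.7, 43.4 and 47.6% with TMM, and 56.7 and 54.7% against mature oligodendrocytes in DESeq2 and with thinning. A change of sign was listed only where the result passed in the main fit or in the alternative. Named genes that turned in this sense were *Neu4* (-0.64 against differentiating barcodes with 3 or more OPC markers) and *Nkx2-2* (0.87 against those with fewer). *Gjb1* turned against differentiating cells (0.74 against those with 3 or more and 1.48 with classes called on thinned barcodes). *Sox10* and *Gabbr1* turned against mature oligodendrocytes with library sizes alone (0.59 and 0.31), and *Cnp* against astrocytes without mixed members (-0.35). The causes were not tested. With 1 library left there is no test, only values. Of 129 results for named genes, 126 kept their side of the threshold without the block, 124 in DESeq2, 119 with thinning and 117 without mixed members. Those among them that passed kept their direction too, while direction was not judged for those that passed in neither fit. With library 1 left out 50 of them moved by more than 1 standard error, and with library 2 left out 56, and none that passed changed sign. The genes named as the largest rises and falls had been chosen for the same direction in both libraries. A change of sign was therefore not possible for those genes, and its absence there tests nothing. Depth limits low genes, since the OPC sums held 1240247 and 1690624 UMIs in the fit.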

Other observations

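OPC sums of the libraries were close. Of 4705 genes with 50 or more CPM in OPCs of either library, 4592 (97.6%) differed by less than 2-fold, 59 were higher in library 1 and 54 in library 2. *Cacng7*, whose product accompanies AMPA receptors, was at 20.1 and 88.5 CPM in OPCs, 15.8 and 76.6 in differentiating cells, 11.0 and 48.1 in mature oligodendrocytes and 7.47 and 28.0 in astrocytes, higher in library 2 in all 4 classes. The ribosomal protein gene *Rpl10* was at 583 and 13.6 CPM in OPCs, and *Gm20594* at 0 and 123. The endothelial genes *Flt1* and *Cldn5*, the mural gene *Vtn* and the microglial gene *P2ry12* were higher in OPCs of library 2. *Rgs5*, of the same mural list as *Vtn*, was at 49.1 and 33.6 CPM. In OPCs of library 1 the smooth muscle genes *Acta2* (124 and 11.8 CPM) and *Tagln* (131 and 7.08) were higher, as were the neuronal genes *Penk* (381 and 8.26), *Nrgn* and *Ppp1r1b*, the neuroblast gene *Igfbpl1*, and the haemoglobin genes *Hba-a1* and *Hbb-bs*. The neuronal markers *Snhg11* and *Tac1* were not higher in library 1, with *Snhg11* at 278 and 283 and *Tac1* at 74.8 and 99.1 CPM. Kit version and sequencer cannot be told apart from the library here, and the cause of these differences was not tested.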
